A study of Mus musculus with 6 samples.

Results

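The transcripts of MHC class I antigen presentation were measured by RNA sequencing in mouse embryonic fibroblasts (MEFs) with and without the mitochondrial protease YME1L. The 10 genes were taken by symbol, and each was found in 1 of the 51499 loci of the count table. They encode the heavy chains of the classical class I molecules (H2-K1 and H2-D1), their light chain (B2m), the peptide transporter (Tap1 and Tap2), the loading factor tapasin (Tapbp), the 3 catalytic subunits of the immunoproteasome (Psmb8, Psmb9 and Psmb10) and the class I transactivator (Nlrc5). Tapbp shared its locus with Zbtb22, since the authors merged overlapping transcripts, and its values are those of both genes together.

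Class I molecules are carried by nearly all nucleated cells and display short peptides from proteins made inside the cell to cytotoxic T cells. Proteasomes cut these proteins, the TAP transporter moves the peptides into the endoplasmic reticulum, and tapasin helps to load them on a heavy chain that is paired with beta-2-microglobulin. Interferons are known to raise the transcription of these genes, in part through NLRC5, which joins the RFX, CREB and NF-Y factors bound at class I promoters. Fibroblasts normally express the pathway at a modest level and raise it when exposed to interferon.

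Both groups were MEFs immortalized with SV40 large T antigen from mice with floxed Yme1l alleles, and no treatment was named for either. Per the study's methods, cells of both genotypes were expanded as individual clones after transduction with Cre recombinase and told apart by genotyping. WT cells kept the floxed gene (genotype Yme1l fl/fl), whereas Yme1l-/- cells had lost it. How many clones stood behind the 3 WT and the 3 Yme1l-/- cultures was not stated, and the WT count columns carry the heading WT2, which was not explained, so differences between clones and between genotypes cannot be told apart. The study addressed innate immune signalling in cells without YME1L, and the comparison below gives the class I pathway in them.

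The libraries held 33180867 to 34012520 fragments in WT and 34624075 to 49351107 in Yme1l-/-, and 13867 loci had enough fragments to be tested. Levels are in CPM (fragments of a locus per 1000000 in the TMM-scaled library). The targeted gene, listed as Yme1l1, fell from 189 ± 5.16 CPM in WT to 39.1 ± 1.34 CPM in the deleted cells (SD, n = 3), or -2.27 ± 0.05 on the log2 scale (SE). A locus was called where edgeR's quasi-likelihood test gave an adjusted p under 0.05. By this rule 33.6% of all tested loci were higher and 34.1% were lower in Yme1l-/-, and 9.10% were higher by at least 2-fold. The median log2 fold change of all tested loci was near 0, at -0.0041. Of 10 fibroblast markers Col1a1, Col1a2, Vim and Fn1 were abundant in every library, whereas Lum had at most 11 fragments and Thy1 at most 6 in any library and neither was tested. In all, 6 of the 8 tested markers were lower in Yme1l-/-, with log2 fold changes of -1.33 for Vim and -0.68 for Col1a2, while Col1a1 was called higher (0.43, or 0.07 without a call once chromosome medians were removed). Their summed level was 10839 to 11402 CPM in WT and 6646 to 7133 CPM in Yme1l-/-, and its part in the class I values was not tested.

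Promoters of classical class I genes are known for an enhancer A, an interferon response element and the X and Y boxes, to which NLRC5 is recruited. The sequences upstream of 5 genes are shown as those that hold matches to cores of some of these elements or, for Psmb8, of a gamma-activated site. They are the 250 bases before the RefSeq start site (GRCm38.p6, strand of the gene, 5′ to 3′), and 8 of the 10 genes had a window in the RefSeq table. The H2-K1 stretch is chr17:34000334-34000583 (minus strand), H2-D1 is chr17:35262844-35263093 (plus), B2m is chr2:122147437-122147686 (plus), Tap1 is chr17:34187306-34187555 (plus) and Psmb8 is chr17:34197945-34198194 (plus). Capitals mark a match on either strand to GGGNNTTCC (the kappa-B core of enhancer A), GAAANNGAA or GAANNGAAA (cores of interferon response elements), TTCNNNGAA (the core of a gamma-activated site), TGACG (the core of the X2 box) or CCAAT (the core of the Y box, read ATTGG on the other strand).
H2-K1: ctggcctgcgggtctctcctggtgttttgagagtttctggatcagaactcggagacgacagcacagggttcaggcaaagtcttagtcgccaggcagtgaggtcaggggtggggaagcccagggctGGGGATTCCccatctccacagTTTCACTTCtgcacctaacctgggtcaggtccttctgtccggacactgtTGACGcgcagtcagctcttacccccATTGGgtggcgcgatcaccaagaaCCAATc
H2-D1: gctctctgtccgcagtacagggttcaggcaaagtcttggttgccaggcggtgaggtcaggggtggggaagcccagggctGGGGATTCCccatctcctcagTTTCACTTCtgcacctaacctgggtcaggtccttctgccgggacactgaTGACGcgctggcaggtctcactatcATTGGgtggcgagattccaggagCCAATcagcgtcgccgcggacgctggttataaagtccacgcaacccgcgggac
B2m: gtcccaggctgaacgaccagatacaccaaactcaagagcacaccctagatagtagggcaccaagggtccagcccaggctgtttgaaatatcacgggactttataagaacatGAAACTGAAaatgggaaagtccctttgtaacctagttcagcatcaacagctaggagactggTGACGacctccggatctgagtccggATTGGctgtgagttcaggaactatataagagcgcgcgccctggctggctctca
Tap1: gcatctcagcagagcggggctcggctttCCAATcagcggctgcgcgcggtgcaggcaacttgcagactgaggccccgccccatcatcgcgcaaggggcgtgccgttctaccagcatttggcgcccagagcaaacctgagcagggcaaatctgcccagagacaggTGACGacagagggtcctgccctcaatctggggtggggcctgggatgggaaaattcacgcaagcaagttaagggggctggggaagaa
Psmb8: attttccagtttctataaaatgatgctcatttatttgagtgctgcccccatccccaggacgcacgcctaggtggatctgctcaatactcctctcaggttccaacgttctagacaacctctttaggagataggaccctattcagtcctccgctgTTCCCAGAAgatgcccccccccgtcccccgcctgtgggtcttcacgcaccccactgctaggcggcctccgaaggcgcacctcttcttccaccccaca

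In H2-K1, H2-D1 and B2m a TGACG was followed by an ATTGG whose first base lay 25 bases downstream, the order of the X2 and Y boxes of class I promoters. This spacing, chosen after the sequences were seen, occurred in 31 of 32851 promoter windows of 300 bases (250 before and 50 after the start), which is 0.0944%, and H2-M3 was the other class I gene among them. Lined up at this TGACG without gaps, H2-K1 and H2-D1 were identical at 131 of 160 bases (81.9%), whereas H2-K1 and B2m were identical at 55 of 160 (34.4%). H2-K1 and H2-D1 each held the same GGGGATTCC, matching the kappa-B core that stood in 5.82% of all windows, and the same TTTCACTTC. The latter matches GAANNGAAA, a motif added after the sequences were seen and present in 7.52% of windows. B2m held GAAACTGAA, a match to the GAAANNGAA core present in 8.56% of windows, and Psmb8 held TTCCCAGAA, a match to the gamma-activated core present in 8.30%. TGACG alone was found in 5 of the 8 matched genes (in 20.8% of windows and for 23% of all genes), and CCAAT in 6 of 8 (37.4% of windows, 41.1% of all genes). Tap1 and Psmb9 count here with the same bases, since their windows overlap. In Tap1 the CCAAT began at -222 from the start and the TGACG at -86, so the order and spacing seen in H2-K1, H2-D1 and B2m were absent. Tap1 also held no match to the kappa-B or interferon response cores. Of the genes not printed, Psmb10 held no match to any of these motifs and Tapbp matched CCAAT only. A match is only a run of letters, and no binding was measured here.

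All 10 genes rose in Yme1l-/- cells, where 33.6% of all tested loci were higher, and none fell. The rise was at least 2-fold for 9 of them, against 9.10% of all tested loci. The 3 Yme1l-/- libraries lay above the 3 WT libraries for each of the 10, a separation seen in 35.9% of all tested loci. Their median log2 fold change was 2.25. The increases ran from 1.87-fold for Psmb10 to 12.0-fold for Psmb9, and the summed level of the 10 genes went from between 754 and 893 CPM per WT library to between 2972 and 3094 CPM per Yme1l-/- library. In bulk RNA, more transcript per cell and more cells that express a gene cannot be told apart.

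**Figure D1:**
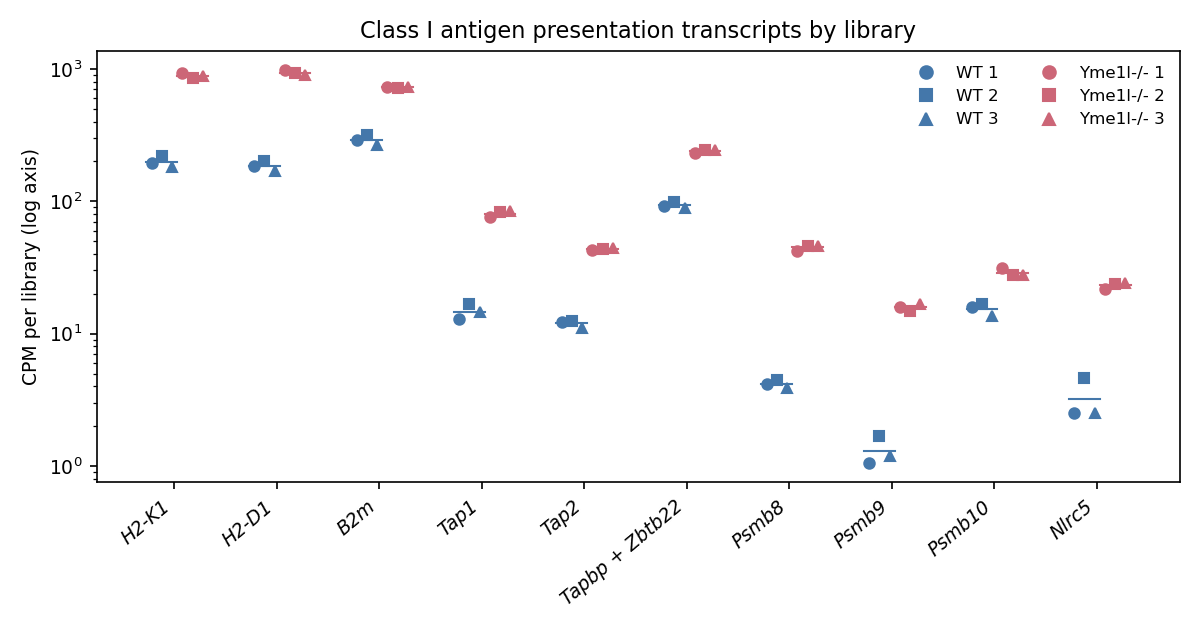
Level of each class I presentation gene in every library, in CPM on a logarithmic axis, with WT and Yme1l-/- libraries in separate colours and a line at the mean of each genotype. All 3 Yme1l-/- points lie above all 3 WT points for every gene, with the narrowest gap at Psmb10 and wide gaps at Psmb8 and Psmb9.

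The heavy chain H2-K1 (ENSMUSG00000061232, GENCODE M21 on GRCm38, chr17:33996017-34000347) measured 194, 219 and 182 CPM in WT replicates 1 to 3 and 925, 854 and 890.0 CPM in Yme1l-/- replicates 1 to 3. Its mean went from 198 ± 18.8 to 889.8 ± 35.3 CPM (SD, n = 3), and the log2 fold change was 2.17 ± 0.07 (SE) at an adjusted p of 4.9e-10 by edgeR. H2-D1 (ENSMUSG00000073411, chr17:35262730-35267499), the other classical heavy chain, measured 186, 202 and 168 CPM in WT and 974, 923 and 895 CPM in Yme1l-/-. Its level rose 5.02-fold, from 185 ± 17 to 931 ± 39.9 CPM (SD, n = 3), or 2.33 ± 0.07 on the log2 scale (SE) at an adjusted p of 2.8e-10 by edgeR. Class I genes resemble each other in sequence, and how fragments that map to several genes were counted was not stated. Of the 100-base windows along the H2-D1 transcript, 4.64% also occur in transcripts of 9 other annotated genes, H2-Q1 and H2-T23 among them, whereas none of the 1520 windows of H2-K1 does.

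The light chain B2m (ENSMUSG00000060802, chr2:122147686-122153083), which pairs with every classical heavy chain, measured 289.6, 316 and 268 CPM in WT and 734, 715 and 726 CPM in Yme1l-/-. It rose 2.49-fold, or 1.31 ± 0.06 on the log2 scale (SE) at an adjusted p of 8e-09 by edgeR. The smaller increase of the light chain showed in the counts of each library, where ratios do not depend on scaling. H2-K1 stood at 0.680 ± 0.0107 of the B2m count in WT and at 1.23 ± 0.0325 in Yme1l-/-, and H2-D1 at 0.636 ± 0.00772 in WT and 1.28 ± 0.0475 in Yme1l-/- (SD, n = 3). These ratios were computed after the single values were seen and were not tested. Per kilobase of transcript B2m was still the most abundant of the 10 genes in both genotypes, at 339 ± 28.0 CPM per kb in WT and 843 ± 11.2 CPM per kb in Yme1l-/- (SD, n = 3). H2-K1 followed with 123 and 549.6 CPM per kb and H2-D1 with 88.1 and 443 CPM per kb, in WT and Yme1l-/- respectively. B2m lies wholly within the annotated span of Patl2 on the opposite strand (5398 bases). The libraries were stranded, but the strand setting of the counting was not stated, so fragments of Patl2 in the B2m count were not tested for.

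The transporter subunit Tap1 (ENSMUSG00000037321, chr17:34187553-34197225) measured 12.8, 16.6 and 14.6 CPM in WT and 75.6, 82.6 and 83.8 CPM in Yme1l-/-, a 5.50-fold rise. Its partner Tap2 (ENSMUSG00000024339, chr17:34203527-34216321) measured 12.3, 12.5 and 11.1 CPM in WT and 42.7, 43.8 and 44.4 CPM in Yme1l-/-, a 3.64-fold rise. The log2 fold changes were 2.46 ± 0.08 for Tap1 and 1.87 ± 0.06 for Tap2 (SE), with edgeR adjusted p of 1.1e-09 and 6.5e-10. TAP works as a dimer of both subunits, and the count of Tap1 relative to Tap2 was 1.23 ± 0.163 in WT and 1.85 ± 0.0670 in Yme1l-/- (SD, n = 3; not tested). The locus of Tapbp (ENSMUSG00000024308, chr17:33915899-33929292), which holds tapasin, the bridge between TAP and the empty class I molecule, measured 91.6, 99 and 88.8 CPM in WT and 231, 242 and 246 CPM in Yme1l-/-. This was a 2.57-fold rise of Tapbp and Zbtb22 together, or 1.36 ± 0.05 on the log2 scale (SE) at an adjusted p of 1.6e-09 by edgeR.

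The immunoproteasome subunits replace the constitutive catalytic subunits of the proteasome and alter which peptides it releases. Psmb8 (ENSMUSG00000024338, chr17:34197721-34201454) measured 4.14, 4.49 and 3.86 CPM in WT and 42.5, 46.0 and 46.3 CPM in Yme1l-/-, a 10.8-fold rise, or log2 fold change of 3.43 ± 0.08 (SE) at an adjusted p of 3.1e-11 by edgeR. Psmb9 (ENSMUSG00000096727, chr17:34181987-34187764) was near 1 CPM in WT, with 35, 55 and 39 fragments, and had 554, 743 and 860 fragments in Yme1l-/-. Its level rose from 1.31 ± 0.327 to 15.8 ± 1.07 CPM (SD, n = 3), or 3.59 ± 0.15 on the log2 scale (SE) at an adjusted p of 3.4e-09 by edgeR. Psmb10 (ENSMUSG00000031897, chr8:105935735-105938444), the third of these subunits, changed far less, from 15.9, 16.7 and 13.6 CPM in WT to 31.3, 27.6 and 27.7 CPM in Yme1l-/-. Its log2 fold change was 0.91 ± 0.08 (SE) at an adjusted p of 2.6e-06 by edgeR, and it became 1.22 when the median change of its chromosome was removed. Tested loci of chromosome 8, which holds Psmb10 and Nlrc5, had a median log2 fold change of -0.32, against 0.17 for chromosome 17 and -0.02 for chromosome 2.

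Each immunoproteasome subunit was then set against the constitutive subunit whose place it takes, within each library. The Psmb8 count was 3.16% to 3.8% of the Psmb5 count in WT and 32.1% to 45.6% in Yme1l-/-, an 11.9-fold difference. Psmb9 stood at 0.669% to 1.15% of Psmb6 in WT and at 4.91% to 5.67% in Yme1l-/-, a 6.04-fold difference. Psmb10 stood at 7.53% to 8.72% of Psmb7 in WT and at 14.1% to 14.9% in Yme1l-/-, a 1.78-fold difference. The libraries did not overlap in any of the 3 ratios, and each exact permutation test over samples (two-sided) gave p = 0.1 before and after adjustment over the 3 ratios, the smallest value that 3 against 3 libraries allow. The constitutive subunits themselves did not move alike. Psmb6 rose 2.03-fold, from 149 ± 7.76 to 303 ± 16.9 CPM (SD, n = 3), while Psmb5 (log2 fold change -0.13 ± 0.09) and Psmb7 (0.08 ± 0.05) did not pass the test. The log2 fold change of Psmb6 was 1.02, and 0.67 at its lowest among the alternative fits. Psmb5 was called lower with the replicate number as a block (adjusted p by edgeR 0.044) and without Yme1l-/- replicate 1 (-0.25), and Psmb7 was called higher with upper-quartile scaling (adjusted p by edgeR 0.025).

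**Figure D2:**
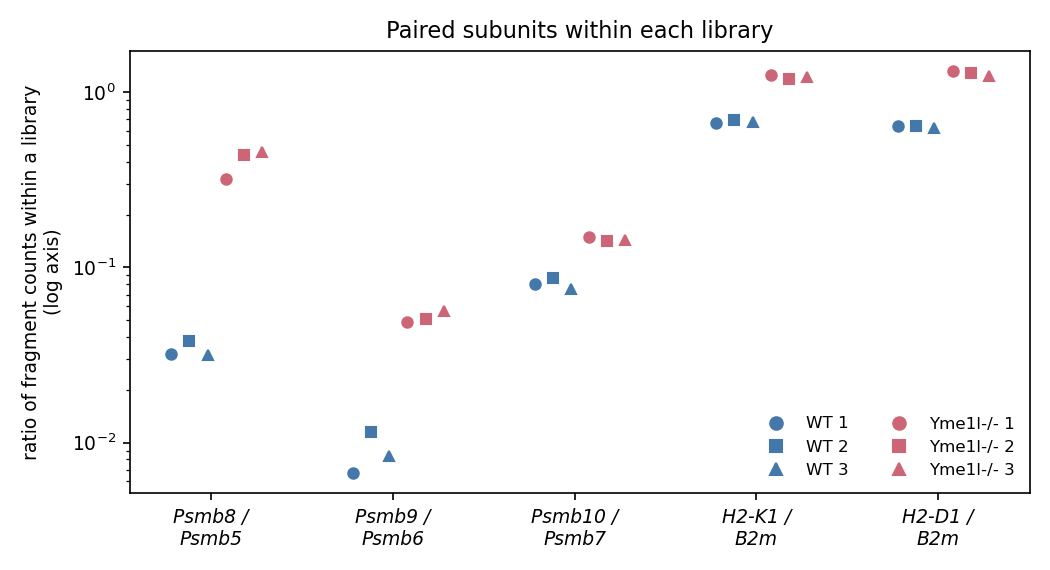
Ratio of fragment counts within each library on a logarithmic axis, for each immunoproteasome subunit over the constitutive subunit it replaces and for each heavy chain over B2m, with WT and Yme1l-/- libraries in separate colours and a symbol for each replicate. The Yme1l-/- points lie above the WT points in every pair, with the widest gap for Psmb8 to Psmb5 and the narrowest for Psmb10 to Psmb7.

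Nlrc5 (ENSMUSG00000074151, chr8:94434356-94527272), the transactivator that drives class I promoters, was the least abundant of the 10 genes per kilobase, at 0.426 CPM per kb in WT and 3.06 in Yme1l-/-. It measured 2.54, 4.64 and 2.51 CPM in WT and 21.6, 23.7 and 24.2 CPM in Yme1l-/-, a 7.17-fold rise. The log2 fold change was 2.84 ± 0.21 (SE) at an adjusted p of 5.3e-06 by edgeR. The WT libraries were uneven, with replicate 2 well above the other two, and the coefficient of variation was 37.9% in WT and 5.93% in Yme1l-/-.

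The rank of WT replicate 2 was shared by the whole set, though the gap was small for most of the other genes, such as Tap2 (12.3, 12.5 and 11.1 CPM in WT). WT replicate 2 was the highest WT library for all 10 genes, while it was the highest for 31.8% of all tested loci. The coefficient of variation was larger in WT than in Yme1l-/- for each of the 10, and the share of all tested loci with this order was not computed. WT replicate 2 also stood high for the fibroblast genes Col3a1 (301 CPM against 86.3 and 91.1 in the other WT libraries) and Dcn (7.85 against 1.57 and 1.56 CPM); the part of these differences in the class I values was not tested. Both genes were among the 6 markers called lower, but the calls of Col3a1, Dcn and Pdgfrb were lost among the alternative fits, where their adjusted p reached 0.092, 0.139 and 0.179. Without WT replicate 2 the log2 fold change of Nlrc5 was 3.19 and the median of the 10 genes was 2.32. In the other fits the log2 fold change of Nlrc5 lay between 2.69 and 3.16. All 10 genes kept their call and direction in each of the 13 alternative fits.

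Per kilobase the 10 genes kept a similar order in both genotypes. In WT it ran B2m, H2-K1, H2-D1, Tapbp (32.1 CPM per kb), Psmb10 (11.7), Tap1 (4.97), Tap2 (3.48), Psmb8 (2.56), Psmb9 (0.969) and Nlrc5. In Yme1l-/- the first 4 places were the same, and Psmb8 (27.6 CPM per kb) and Tap1 (27.3) stood above Psmb10 (22), Tap2 (12.7) and Psmb9 (11.7). In Yme1l-/- the levels of Psmb8 and Tap1 differed by less than either SD (1.31 and 1.5 CPM per kb) and those of Tap2 and Psmb9 by less than the sum of their SDs (0.250 and 0.793), so the order within these pairs is not resolved. The authors' pooled FPKM, which rest on their own transcript models, also put B2m (421 in WT, 1045 in Yme1l-/-) and H2-K1 (137 and 616) first and Nlrc5 (1.16 and 6.04) last in both genotypes. In Yme1l-/- they put Psmb10 (43.8) above Psmb8 (42.5) and Tap1 (30.3), unlike the CPM per kb.

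Of these genes 7 lie on chromosome 17 within or beside the MHC. Psmb9, Tap1, Psmb8 and Tap2 follow each other there without another expressed gene between them, and the annotated transcripts Gm20496 and Gm15821 that overlap them on the opposite strand had 0 fragments in every library. The RefSeq starts of Psmb9 and Tap1 face away from each other 226 bases apart, so their promoter windows share 275 bases and the Tap1 sequence above covers most of the Psmb9 promoter. The spans of Psmb9 and Tap1 overlap by 212 bases on opposite strands. From H2-K1 to H2-D1, 56 loci were tested, of which 38 were higher, 6 lower and 12 not called, where 33.6% of all tested loci were higher and 34.1% lower. Without the 11 genes of the class I and class II lists, 27 of the remaining 45 were higher and 6 lower, with a median log2 fold change of 0.25, and only Notch4 (1.49), C4a (1.14) and Atp6v1g2 (1.01) were higher by at least 2-fold. The heat shock genes Hspa1a (-4.54) and Hspa1b (-1.33) had the lowest log2 fold changes in the interval. Along the whole of chromosome 17, 312 of 668 tested loci were higher and 136 lower, with a median of 0.17.

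**Figure D3:**
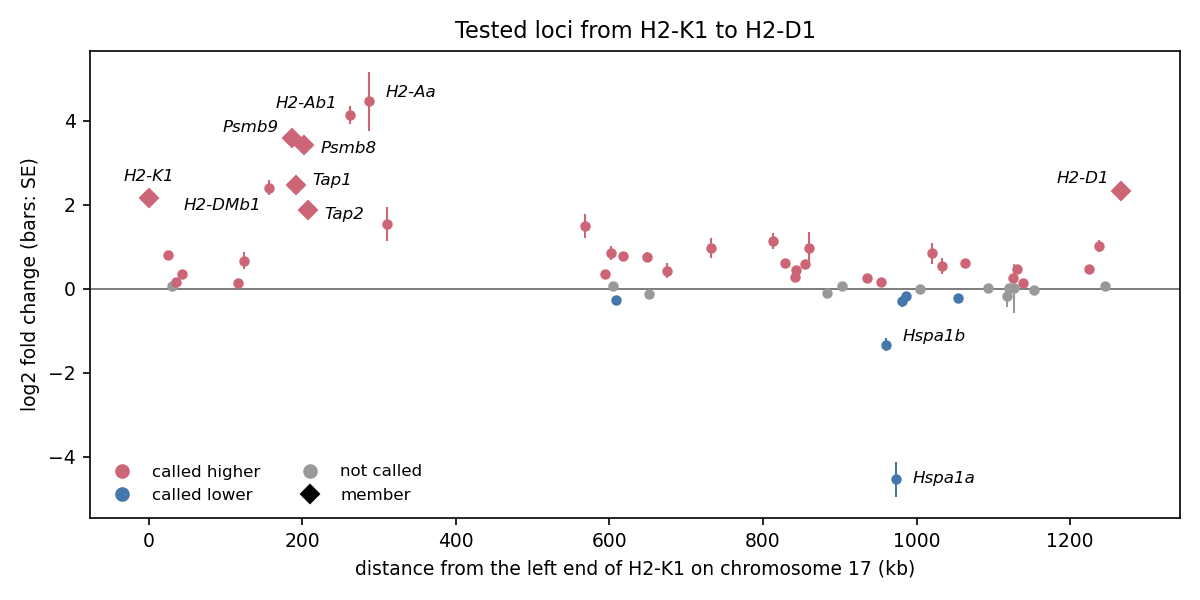
Log2 fold change (Yme1l-/- over WT, bars are SE) of the 56 tested loci from H2-K1 to H2-D1 against their distance from the left end of H2-K1 in kb, with diamonds for the members named above and colours for loci called higher, called lower or not called. The class I diamonds and the class II genes H2-Ab1, H2-Aa and H2-DMb1 stand above most other loci, which lie near the median of 0.25, and Hspa1a lies at -4.54.

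Other class I heavy chains moved in the same direction. Of 27 further class I and class I-like symbols, 24 had a locus, 15 were tested, 12 were higher, each by at least 2-fold, and none was lower, with a median log2 fold change of 1.84. Over all tested loci 33.6% were higher, 9.10% were higher by at least 2-fold and 34.1% were lower. H2-Q4, a non-classical class I gene, took the most fragments of this list in Yme1l-/-. It rose from 29.5 ± 3.73 to 221 ± 7.90 CPM (SD, n = 3), or 2.91 ± 0.08 on the log2 scale (SE). In WT the mean of H2-T22 was higher, at 31.9 ± 2.03 CPM (SD, n = 3). H2-T10 (3.56 ± 0.25) and H2-Q5 (3.43 ± 0.15) had larger log2 fold changes at low levels, up to 2.98 and 13.7 CPM in Yme1l-/-. H2-K2 (2.86 ± 0.33) had 1.22 CPM in Yme1l-/-. H2-K2, H2-T10 and H2-Q1 had at most 11 fragments in any WT library and passed the filter through the Yme1l-/- libraries alone, so among tested genes these 3 could only be higher. Among genes of other function with a class I fold, Fcgrt, the neonatal Fc receptor, rose by 1.69 ± 0.12 and Hfe, a regulator of iron uptake, by 1.84 ± 0.18 on the log2 scale (SE). H2-T23 (0.07 ± 0.13), H2-M5 (0.16 ± 0.32) and Mr1 (-0.16 ± 0.14) did not pass the test. Class I genes resemble each other in sequence, and windows shared among the H2-Q and H2-T genes were not examined, so values of single genes are uncertain.

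Of 5 further loading and editing factors of the endoplasmic reticulum 3 were higher and 2 lower, against 33.6% and 34.1% of all tested loci. Their median log2 fold change was 0.27. Tapbpl, a tapasin relative that edits peptides, rose by 1.19 ± 0.08, and Erap1, which trims peptides in the endoplasmic reticulum, rose by 0.99 ± 0.05 (log2 fold change, SE). The general chaperone Calr fell by 0.68 on the log2 scale, from 1123 ± 36 to 699 ± 14.7 CPM (SD, n = 3), and Pdia3, a disulfide isomerase, fell by 0.31. Canx was called higher at 0.27 ± 0.05, but stood at -0.09 without a call once the median of its chromosome was removed.

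Among 8 tested constitutive and regulator subunits of the proteasome 5 were higher and 1 was lower, against 33.6% and 34.1% of all tested loci. Their median log2 fold change was 0.22. Psme1 and Psme2, which form the interferon-inducible activator that caps the proteasome, rose by 1.12 ± 0.05 and 1.43 ± 0.06 (SE). Psme1 went from 47.2 ± 2.44 to 102.6 ± 2.83 CPM and Psme2 from 26.2 ± 1.40 to 70.5 ± 4.21 CPM (SD, n = 3). Psme4, another activator, was called higher at 0.26 ± 0.05 and stood at -0.10 without a call once chromosome medians were removed, and Psme3, called higher at 0.17 ± 0.05, then stood at -0.19 and was called lower. Pomp, the assembly factor, fell by 0.14, which 4 alternative fits did not call.

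Of 12 transcription factors known to act on class I genes 4 were higher, 4 lower and 4 not called, shares near those of all tested loci (33.6% higher and 34.1% lower), with a median log2 fold change of -0.10. Irf1, an interferon-responsive factor, rose from 31.0 ± 2.47 to 83.5 ± 4.05 CPM (SD, n = 3), or 1.43 ± 0.06 on the log2 scale (SE). Changes were small among the partners of NLRC5 at class I promoters. The NF-Y subunits Nfya (0.22 ± 0.04) and Nfyb (0.15 ± 0.04) were called higher and Nfyc fell by 0.21 on the log2 scale (SE), but with chromosome medians removed Nfyb stood at -0.15, called lower, and the calls of Nfya and Nfyc were lost. Creb1 fell by 0.44 on the log2 scale, Rfxap fell by 0.31 (a call lost at an edgeR adjusted p of 0.084 once chromosome medians were removed), and Rfx5 (-0.12 ± 0.07) and Rfxank (-0.17 ± 0.09) did not pass the test. Ifng, which encodes interferon gamma, had 0 fragments in every library. Its receptor chains Ifngr1 and Ifngr2 rose by 0.47 ± 0.05 and 0.59 ± 0.06, the locus holding Ifnar2 together with Il10rb rose by 0.64 ± 0.05, and Ifnar1 fell by 0.19 (log2 scale, SE). The log2 fold change of Ifngr1 was 0.17 at its lowest among the alternative fits.

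**Figure D4:**
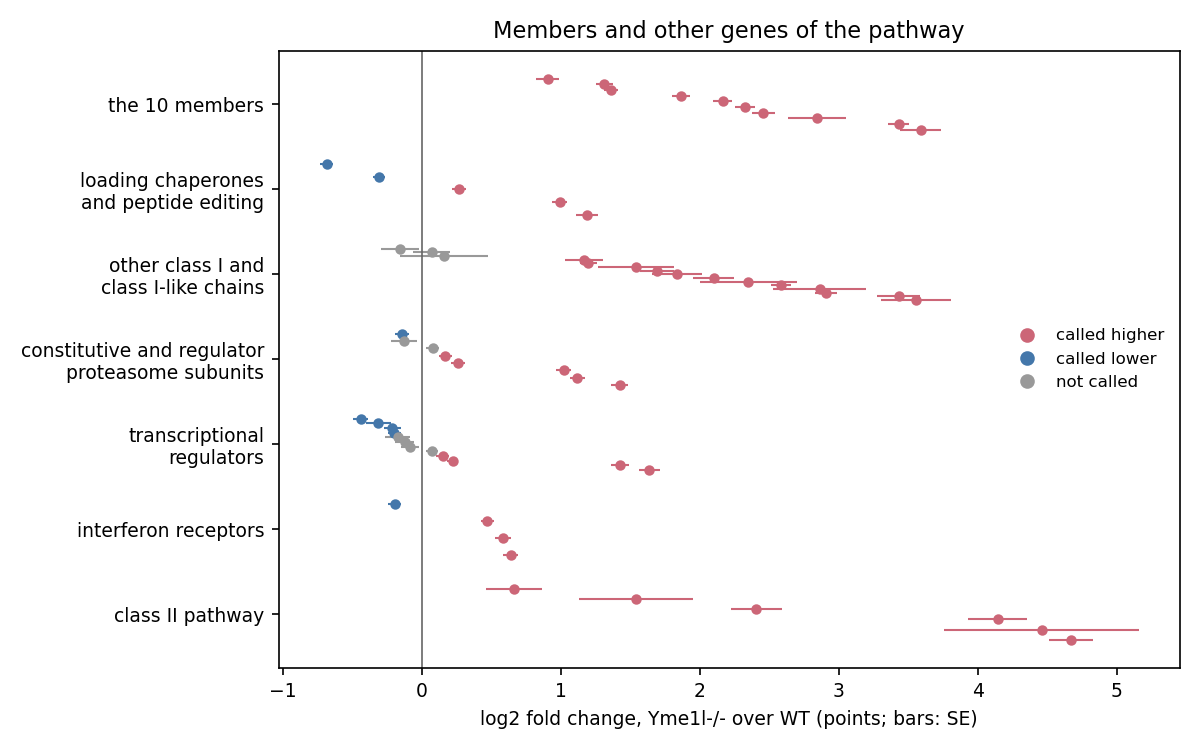
Log2 fold change (Yme1l-/- over WT, bars are SE) of each tested class I presentation gene and of the tested genes of the related lists, grouped by list, with a line at 0. The 10 class I presentation genes and most other class I heavy chains lie above 0.9, whereas the endoplasmic reticulum chaperones, constitutive proteasome subunits and transcription factors lie on both sides of 0.

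Class II molecules are normally confined to antigen-presenting cells, and their genes are controlled by CIITA, a relative of NLRC5. Of 11 class II pathway genes 6 were tested and called higher, with mean levels of 0.364 to 14.1 CPM in Yme1l-/-. Over all tested loci 33.6% were higher. H2-Aa, H2-Ab1 and H2-Eb1 had at most 8 fragments in any WT library and passed the filter on low counts through the Yme1l-/- libraries alone, so among tested genes these 3 could only be higher. The call of H2-DMa (0.66 ± 0.20 on the log2 scale, SE) was lost in 2 alternative fits. Cd74, the invariant chain, rose from 0.386 ± 0.0762 to 9.93 ± 0.520 CPM (SD, n = 3), or 4.67 ± 0.16 on the log2 scale (SE), and H2-Ab1 rose from 0.203 ± 0.0456 to 3.65 ± 0.179 CPM, or 4.15 ± 0.21 on the log2 scale. H2-Aa had at most 1 fragment in each WT library and 13, 20 and 38 in Yme1l-/-, so that it was at least 5.49-fold higher against a floor of 3 counts per library. H2-DMb1, a subunit of the class II peptide editor, rose by 2.41 ± 0.18 (SE). Ciita itself had at most 1 fragment in any library.

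Markers of other cell types were examined beside these values. Of 10 leukocyte and antigen-presenting cell markers only Cd68 was tested, and it rose from 1.77 ± 0.0819 to 3.62 ± 0.245 CPM (SD, n = 3). Ptprc, which encodes the pan-leukocyte antigen CD45, had at most 1 fragment per library, and Adgre1, Tyrobp and Cd3e had 0 in every library. The myeloid markers Itgam (4, 4 and 2 fragments in WT, 9, 14 and 29 in Yme1l-/-) and Csf1r (3, 2 and 5 in WT, 11, 20 and 11 in Yme1l-/-) were below the filter, and their counts were higher in every Yme1l-/- library than in any WT library, while those of Itgax (0, 3 and 2 in WT, 2, 4 and 1 in Yme1l-/-) and Cd79a (5, 5 and 1 in WT, 0, 2 and 2 in Yme1l-/-) were not. The summed level of the list was 2.11 to 2.24 CPM in WT and 4.11 to 4.77 CPM in Yme1l-/-, and its part in the class I and class II values was not tested. Of 4 endothelial markers only Kdr was tested (log2 fold change 0.72 ± 0.22), and the list summed to 0.888 to 1.44 CPM in WT and 1.67 to 2.00 CPM in Yme1l-/-. Of 4 epithelial markers Krt18 and Epcam were lower in Yme1l-/-. Both passed the filter through the WT libraries alone, so among tested genes they could only be lower. Krt18 had 31.9 ± 1.12 CPM (SD, n = 3) in WT and at most 3 fragments in any Yme1l-/- library, at least 373-fold lower.

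Across the related lists together, without the 10 genes and the markers, 33 of 50 tested loci were higher and 8 lower, with a median log2 fold change of 0.65, where 33.6% of all tested loci were higher and 34.1% lower. Those higher include the class I and class II genes above that passed the filter through the Yme1l-/- libraries alone and could only be higher. How many such loci stand in the share of all tested loci was not examined, so the excess over that share is uncertain. With at least 10 counts required in every library, which these genes do not reach, 27 were higher and 8 lower. The share of all loci higher under that filter is not given, so these counts were not set against a background.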

How the data were processed

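Poly(A)-selected, stranded libraries of 3 WT and 3 Yme1l-/- cultures were sequenced as read pairs by the authors, mapped to GRCm38 (mm10) with HISAT2 2.0.4, assembled with StringTie 1.3.3 and compared with Cuffdiff 2.2.1, per the labels and the study's methods. The deposited count table gives whole fragment counts per locus without normalization by the authors, and overlapping genes were merged in it. A separate table deposited by the authors holds FPKM as 1 pooled value per genotype, beside a log2 ratio, p-value and q-value of their own test, which were not used.

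Counts were filtered with filterByExpr (minimum count 10), scaled by TMM and tested with edgeR 4.0.16 (R 4.3.3; quasi-likelihood, two-sided, no covariate), with Benjamini-Hochberg adjustment over all 13867 loci. The script was tested on simulated data. The labels and the study call the replicates separate cultures, and a p-value covers the spread between these cultures only. No library repeated another of its genotype (chi-square per degree of freedom at least 8.54). Totals of 33180867 fragments or more per library put 3 counts at 0.0919 CPM or less after TMM scaling, and such floors cover counting error only. CPM per kb used the longest protein-coding transcript of each gene in GENCODE M21, and promoter sequences were those of RefSeq.

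The members and lists were chosen with earlier results of these data known. Named were all 10 genes, and from each further list the 4 largest changes among the calls and those a comparison needed; Notch4, C4a, Atp6v1g2, Hspa1a and Hspa1b, genes that did not pass the test, and markers with few fragments were named after their values were seen. Alternatives were RLE and upper-quartile scaling, DESeq2 1.42.0, 2 other filters, the replicate number as a block, removal of chromosome medians and leaving out each library. Some single list members are left out of the text.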

Additional observations from a re-analysis of the deposited data

How the results depend on the processing

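All 10 genes kept their direction and call in the 13 alternatives, and the median log2 fold change of the 10 genes was 2.31 with upper-quartile scaling, 2.08 with chromosome medians removed and between 2.18 (without WT replicate 3) and 2.32 (without WT replicate 2) when a library was left out. Upper-quartile scaling moved the median of all loci to 0.06, and chromosome 17 itself had a median of 0.17, which is the shift taken out by the removal of chromosome medians. The numbers of calls over all loci (8513 to 10051, against 9387) and among the related genes (27 to 35 higher, 7 to 9 lower) stayed within 1.5 times. Same-numbered libraries of the genotypes correlated at 0.44, -0.38 and 0.15 in their deviations from the group means, so the numbers were not taken to pair the cultures. With the replicate number as a block Psmb5 was also called (lower), while the median of the 10 genes was 2.25 and all 10 were called higher. Depth limited Psmb9 in WT (at most 55 fragments) and the class II genes, and the uneven WT libraries limited Nlrc5. Among small calls in the related lists, those of Canx, Psme4, Rfxap, Nfya, Nfyc, Nfkb1 and H2-DMa were lost with chromosome medians removed. In that fit Psme3 and Nfyb turned to called lower, and the transcription factor Irf2 went from -0.08 without a call to 0.23, called higher. Nfkb1, also a transcription factor, had been called lower at -0.20. The call of Pomp was lost with upper-quartile scaling or without WT replicate 1 or Yme1l-/- replicate 2 or 3.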
